A study of Mus musculus with 2 samples.

Results

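The regions described here are accessible stretches of mouse skeletal muscle chromatin that lie between genes, beyond the immediate surroundings of gene starts but not deep in gene deserts. They were chosen as the replicate 1 peaks that overlapped a replicate 2 peak by at least 1 bp, touched the body of no protein-coding gene, and had a midpoint more than 10 kb and at most 50 kb from the nearest start of any annotated gene. Of 97499 replicate 1 peaks, 49760 were shared with replicate 2, and 6546 of those (13.2%) met the rule and are called middle-distance peaks below. The same rule gave 8910 shared intergenic peaks at up to 10 kb (the near class) and 1816 at over 50 kb (the far class), which are set beside them.

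The data are DNase-seq, in which DNase I cuts open chromatin in nuclei and the cut ends are sequenced, of the gastrocnemius, a calf muscle. There is 1 group of 2 male mice of strain B6CASTF1/J, an F1 hybrid, aged 25 days, with 1 library each and no treatment named. The labels describe the biosamples as different numbered males but give both the same donor identifier, and they name instrument models for replicate 1 only, so animal and sequencing cannot be told apart.

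No test over animals was possible with 1 group. Region classes are therefore given side by side, with Wilson 95% intervals that cover counting error over regions only, and the differences between classes were not tested. In whole tissue, fewer cells of a type and less accessibility per cell cannot be told apart. The deposited signal of a peak reads as its tags scaled to library size, and on that reading replicate 1 had 169 M tags and replicate 2 had 117 M. The labelled tissue was checked at gene starts: a peak of both libraries lay within 1 kb of a start of 13 of 16 fast fibre genes and 19 of 24 genes of all fibres. The same held for 58.5% of all protein-coding genes, 2 of 14 slow fibre genes and, of lists for cells foreign to muscle, 5 of 13 neuron, 1 of 12 hepatocyte and 1 of 10 keratinocyte genes.

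Accessible sites away from promoters include enhancers, silencers and insulators. Enhancers carry short recognition sequences of lineage factors such as MyoD, a basic helix-loop-helix protein that opens muscle genes through the E-box, and of signal-dependent factors such as AP-1, the Fos and Jun dimer. Insulators are bound by CTCF, a zinc finger protein that anchors chromatin loops and shields its long site from DNase I, which leaves a footprint of protected bases inside the peak.

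The sequences that follow are examples chosen for their strength and are not typical middle-distance peaks. For each motif, the strongest middle-distance peak with a match touching a footprint of both libraries is shown as the 150 bp around its midpoint. Their replicate 1 signals were 1.86 to 13.5, against a median of 0.958 over all middle-distance peaks. Their GC content was 57.3 to 70%, against a median of 54.7%. They are the plus strand of the mm10 reference, read from the RefSeq copy of GRCm38.p6, so the second parental allele of the hybrid is not shown. Capitals mark the match, found on either strand. The CTCF sequence, chr19:5529446-5529595, lay 19 kb upstream of Snx32, a sorting nexin gene, with signals of 6.80 and 7.49 in replicates 1 and 2. The MEF2 sequence, chr2:168128616-168128765, lay 47.7 kb downstream of the start of Pard6b, a cell polarity gene, with 1.86 and 1.13. MEF2 proteins act with MyoD on muscle genes.
CTCF: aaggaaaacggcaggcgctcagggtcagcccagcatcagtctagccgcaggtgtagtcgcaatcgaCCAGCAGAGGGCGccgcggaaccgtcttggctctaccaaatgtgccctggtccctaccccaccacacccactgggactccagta
MEF2: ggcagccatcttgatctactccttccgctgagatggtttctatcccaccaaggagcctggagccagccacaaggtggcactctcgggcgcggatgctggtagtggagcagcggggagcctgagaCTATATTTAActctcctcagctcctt

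The next 3 sequences show motifs of enhancer factors. TEAD proteins are the DNA-binding partners of the Hippo pathway, and their sequence, chr9:20831046-20831195, lay 12.6 kb downstream of the Rdh8 start with signals of 8.83 and 8.83. The AP-1 sequence, chr11:103159106-103159255, lay 11.9 kb upstream of Fmnl1, a formin gene, with 8.24 and 8.07. NFI proteins bind a long palindrome as dimers, shown at chr2:118510526-118510675, 30.9 kb upstream of Srp14, with 5.39 and 5.22.
TEAD: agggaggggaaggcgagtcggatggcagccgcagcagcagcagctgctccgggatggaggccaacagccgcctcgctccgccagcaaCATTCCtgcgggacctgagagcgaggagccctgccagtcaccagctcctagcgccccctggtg
AP-1: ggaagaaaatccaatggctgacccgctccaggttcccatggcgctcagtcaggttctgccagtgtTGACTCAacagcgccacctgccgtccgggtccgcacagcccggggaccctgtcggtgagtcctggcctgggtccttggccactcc
NFI: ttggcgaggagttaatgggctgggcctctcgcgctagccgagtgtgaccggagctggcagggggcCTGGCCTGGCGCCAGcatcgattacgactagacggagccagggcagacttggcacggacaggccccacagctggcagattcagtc

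The last sequence carries the E-box CAGCTG, a form that MyoD binds. It was chr15:85634586-85634735, 52.2 kb upstream of Wnt7b, which encodes a secreted Wnt ligand, with signals of 13.5 and 7.81 in replicates 1 and 2.
E-box: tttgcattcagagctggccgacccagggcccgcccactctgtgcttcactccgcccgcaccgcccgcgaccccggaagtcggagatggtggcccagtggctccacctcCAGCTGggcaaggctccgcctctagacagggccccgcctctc

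The middle-distance peaks had lower signal than the near class and higher signal than the far class. Their median was 0.958 in replicate 1 and 0.889 in replicate 2, or 0.923 ± 0.0492 (SD, n = 2). The near class had 1.24 and 1.20, and the far class 0.769 and 0.692. Both libraries gave the 3 classes the same order, and the gaps between classes were wider than the spread between the libraries within a class. Over all shared peaks the median was 1.23 in each library, and 36.6% of middle-distance peaks lay above it in replicate 1 and 31.2% in replicate 2.

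A typical middle-distance peak was 200 bp wide and rested on a moderate number of tags. The medians were 162 and 104 tags in replicates 1 and 2, and the lowest values were 6 and 9. The stricter deposited lists of both libraries held 51.0% of them (49.8 to 52.2), against 62.4% of the near and 44.5% of the far class. Replicate 2 set that share, since its own stricter list held 52.8% and that of replicate 1 held 86.0%.

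Middle-distance peaks of one animal were found in the other less often than near peaks and more often than far peaks. Of 15803 replicate 1 peaks at this distance, 41.4% (40.7 to 42.2) were shared, against 51.0% near and 31.6% far. Of 8472 such peaks of replicate 2, the shallower library, 76.8% (75.9 to 77.7) were shared, against 79.3% and 63.0%. The unshared peaks were weak, with a median signal of 0.414 in replicate 1 and 0.325 in replicate 2, and the part of depth in these shares was not tested.

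Per unit of sequence, too, middle-distance peaks stood between the other classes. Their window covered 698 Mb, or 25.6% of the chromosomes, and held 9.38 peaks per Mb. The near window held 18.9 per Mb of its 470 Mb, and the far window 3.51 per Mb of its 517 Mb. Inside the middle window, 3010 peaks lay at 10 to 20 kb, 1814 at 20 to 30 kb, 1049 at 30 to 40 kb and 673 at 40 to 50 kb. The median signal was lower in each further bin, from 1.02 and 0.957 in replicates 1 and 2 in the first to 0.869 and 0.786 in the last.

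**Figure D1:**
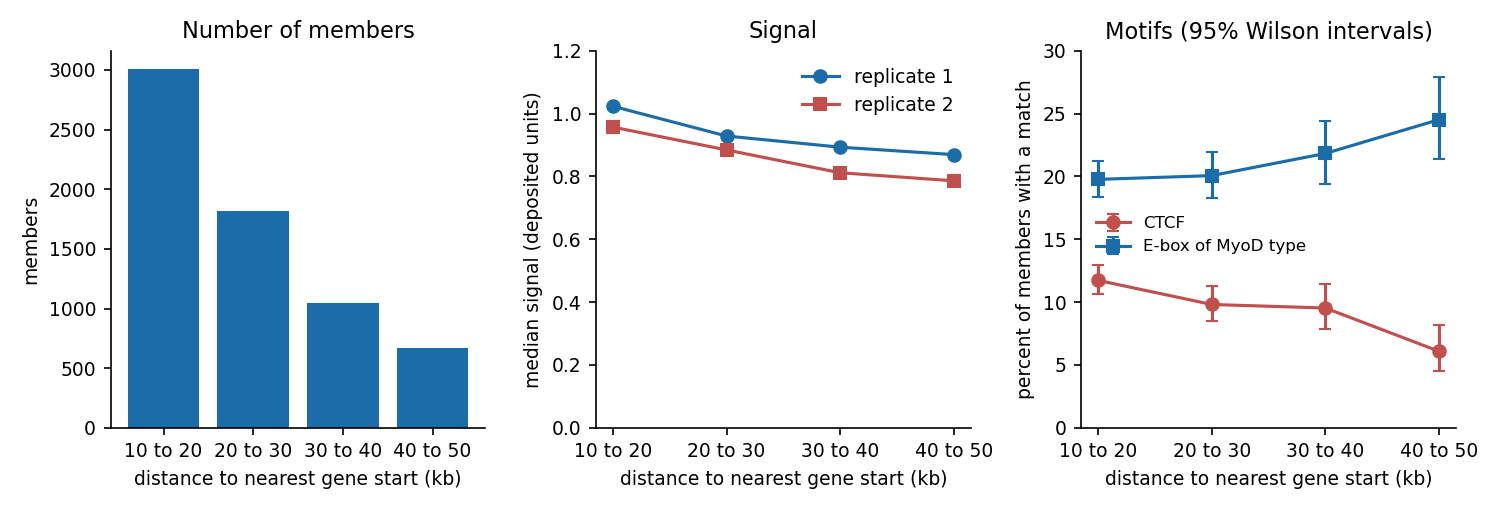
Middle-distance peaks in 4 bins of distance from the nearest gene start (x axis, kb). The panels give the number of peaks (members), the median deposited signal in replicates 1 and 2, and the percent of peaks with a CTCF or an E-box CAGCTG match (E-box of MyoD type) in the 150 bp window, with Wilson 95% intervals. Counts, signal and the CTCF share are lowest in the bin of 40 to 50 kb, where the CAGCTG share is highest.

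Signals at the edges of the window overlapped those just beyond them. The 5 peaks just inside 10 kb lay at 10004 to 10012 bp with replicate 1 signals of 0.544 to 2.30, and the 5 just outside lay at 9991 to 10000 bp with 1.04 to 3.65. At the far edge the 5 inside, at 49866 to 49990 bp, had 0.438 to 2.09, and the 5 outside, at 50014 to 50067 bp, had 0.538 to 2.36. The nearest gene start belonged to a protein-coding gene for 34.6% of middle-distance peaks, a lincRNA for 25.2% and a processed pseudogene for 18.2%. The nearest protein-coding start was a median of 41.7 kb away, and 62.7% of the peaks lay upstream of it.

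Footprints covered middle-distance peaks about as often as shared peaks at large. A deposited footprint of each library touched 80.5% of them (79.5 to 81.4), against 81.6% of all shared peaks, 82.9% of the near and 72.8% of the far class. Split into 4 equal classes of signal, the share was 49.8% in the weakest and 99.0% in the strongest. Footprints gathered at the midpoint, where 39.0% of the peaks lay under one in replicate 1 and 29.9% in replicate 2. At 250 bp upstream and downstream these shares were 0.962% and 0.855% in replicate 1 and 0.657% and 0.733% in replicate 2.

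The sequence under middle-distance peaks was richer in G and C and poorer in repeats than its surroundings. Median GC of the 150 bp window was 54.7%, against 46.7% in windows centred 1000 bp to either side, 56.7% in the near class, 54.0% in the far class and 66% in shared peaks within 1 kb of a protein-coding start. Repeat-masked bases made up a mean of 7.58% of the windows and 27.3% of the flanking windows.

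Of the 37 motifs searched, CTCF had the highest ratio of these windows to their flanks. A match was found in 672 of the 6546 windows (10.3%, 9.55 to 11) and in 0.145% of flanking windows. The share was 8.55% in the near class, 7.82% in the far class, 6.13% in all shared peaks and 0.882% in promoter peaks. Exact matches to 37 consensus motifs were counted on both strands, and the sets compared differ in GC and in signal.

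CTCF matches sat in the centre of the peaks and under footprints. Of the 675 matches, 85.9% lay within 25 bp of the midpoint, and 90.1% (87.6 to 92.1) touched a footprint in both libraries. Windows with a match had median signals of 1.30 and 1.41 in replicates 1 and 2, against 0.929 and 0.854 in the others. The share with a match was 3.36% in the weakest and 17.8% in the strongest of the 4 signal classes. At 10 to 20 kb from a gene start it was 11.7% (10.6 to 12.9), and at 40 to 50 kb it was 6.09% (4.52 to 8.16). Of 669 windows with 1 match, 44.7% (41.0 to 48.5) had it on the strand that points toward the nearest protein-coding start.

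How the CTCF share compared between distance classes depended on which peaks were set side by side. Within the signal range of the strongest class of middle-distance peaks, a match was found in 17.8% (16.0 to 19.7) of them, 10.9% (9.91 to 11.9) of near peaks and 11.1% (7.87 to 15.4) of far peaks. In the weakest class the shares were 3.36%, 3.57% and 4.96% in the middle, near and far classes, in the next 7.46%, 6.07% and 8.98%, and in the one after it 12%, 10% and 9.44%. In the strongest range 45.9% of near peaks were CpG-rich, a term defined below, against 18.4% of middle-distance peaks. Among windows that were not CpG-rich, at all signals, the shares were 10.6% in the middle, 10.7% in the near and 7.95% in the far class.

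The E-box CAGCTG was the most frequent of the 6 motifs with the highest ratio to flanks. It was found in 1353 windows (20.7%, 19.7 to 21.7), against 7.49% of flanking windows, 16.6% of the near class and 26.0% of the far class. Its share was 19.8% (18.4 to 21.2) at 10 to 20 kb and 24.5% (21.4 to 27.9) at 40 to 50 kb. Unlike CTCF, its matches were spread over the window, with 36.1% within 25 bp of the midpoint, and 14.3% (12.6 to 16.1) touched a footprint in both libraries. Across the 4 signal classes its share stayed between 18.9% and 22.7%. Both motifs stood in 75 windows, which is 11.2% of those with CTCF and 5.54% of those with CAGCTG.

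**Figure D2:**
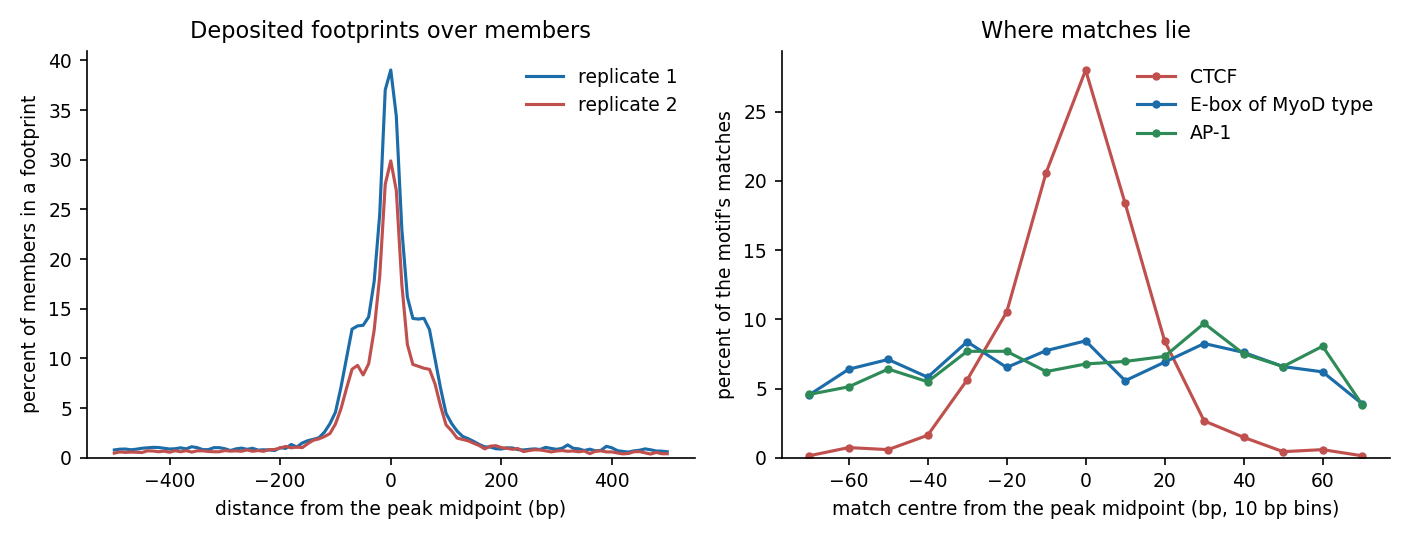
Positions around the midpoint of middle-distance peaks (x axis, bp): on the left the percent of peaks (members) lying under a footprint of replicate 1 or 2, and on the right the percent of the matches of CTCF, E-box CAGCTG (E-box of MyoD type) and AP-1 in bins of 10 bp. Footprints and CTCF matches gather at the midpoint, while CAGCTG and AP-1 matches are spread across the window.

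The other 4 motifs with the highest ratio to flanks included long and CpG-containing sites. The NFI palindrome was found in 78 windows (1.19% against 0.0382% of flanks), and 79.5% of its matches touched a footprint in both libraries. NRF1, a regulator of mitochondrial and housekeeping genes with the motif GCGCATGCG, was found in 23 windows (0.351% against 0.0458%). CRE, the cyclic AMP response element TGACGTCA, was found in 26 (0.397% against 0.0764%). SP, the GC box GGGCGGG of many promoters, was found in 323 (4.93% against 1.44%), where promoter peaks had it in 34.6%. All shared peaks held NRF1 in 1.06%, CRE in 1.13% and SP in 17.0%, more than middle-distance peaks did. They held NFI in 0.949%, less than middle-distance peaks did.

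The 4 motifs with the lowest ratio were found less often in the windows than in the flanks. The homeobox core TAATTA was found in 74 windows (1.13% against 3.79%), the ERR motif TCAAGGTCA of an orphan nuclear receptor in 12 (0.183% against 0.458%), the GATA motif AGATAA in 233 (3.56% against 7.79%) and MEF2 in 88 (1.34% against 2.64%). The homeobox, GATA and MEF2 motifs are rich in A and T, and GC content differs between windows and flanks as given above; its part was not tested. All shared peaks held the homeobox motif in 0.850%, ERR in 0.149%, GATA in 2.52% and MEF2 in 0.928%, each lower than in middle-distance peaks. For ERR the difference was within counting error, as the interval of the middle-distance share was 0.105 to 0.320%. Of the 89 MEF2 matches, 3.37% touched a footprint in both libraries. The other 27 motifs had ratios of 0.597 to 2.55, AP-1 (TGANTCA) among them with 513 windows and 7.84% against 4.31%.

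**Figure D3:**
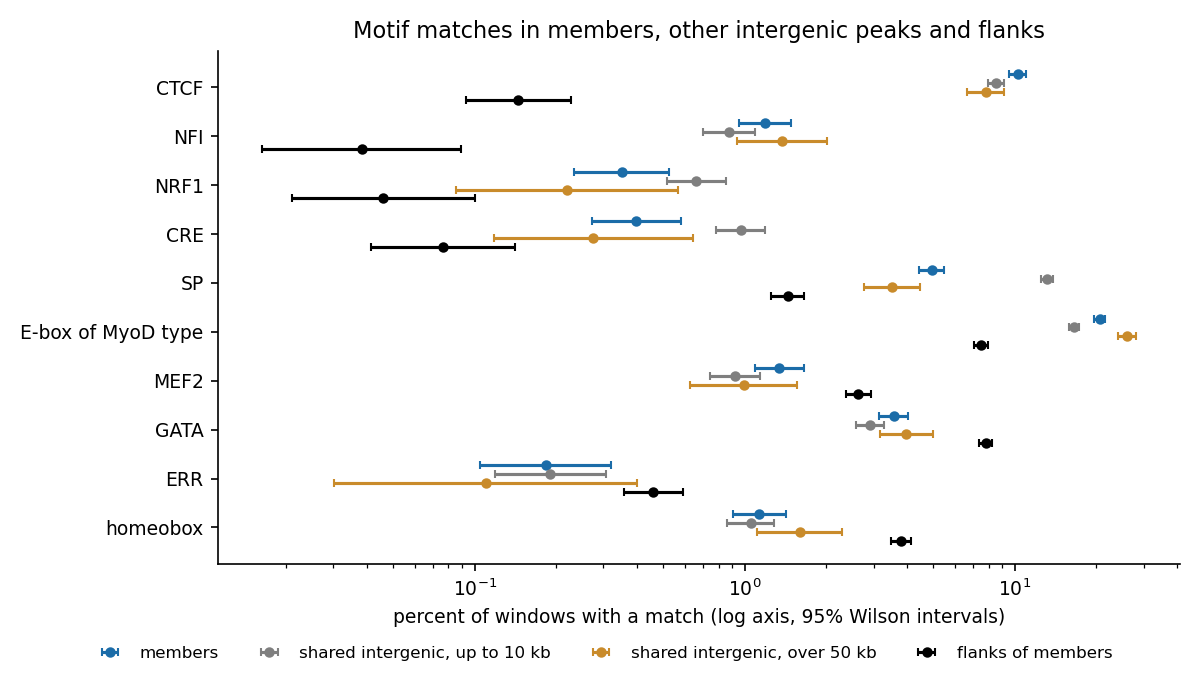
Percent of 150 bp windows with a motif match on a log axis, in middle-distance peaks (members), the near and far classes and the flanking windows, with Wilson 95% intervals, for the 10 motifs with the highest and lowest ratio of peaks to flanks. CTCF stands at 10.3% in middle-distance peaks and 0.145% in flanks, and CAGCTG (E-box of MyoD type) at 20.7% and 7.49%.

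Some motifs share letters, so their counts are not independent. Of the CTCF matches, 18.8% overlapped a match of CACCTG, the E-box form bound by ZEB and E proteins. Of 904 CACCTG matches, 32.3% touched a footprint in both libraries, and 23.3% did after leaving out the 127 that overlapped CTCF. CACCTG was singled out after its values were seen. CAGCTG overlapped most with the MEIS motif TGACAG, at 4.09% of its matches, AP-1 with the MAF motif TGCTGAC, at 3.11%, and all 12 ERR matches contain the nuclear receptor core AGGTCA.

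Signal in one animal tracked signal in the other across middle-distance peaks. Over the 6546 peaks, Spearman's rho was 0.815 and Pearson's r of the log2 signals was 0.841, a description over peaks that all come from the same 2 libraries. The near class gave 0.883 and 0.905, and the far class 0.781 and 0.814. After centring the log2 ratio on its median over all shared peaks, 272 middle-distance peaks (4.16%) were more than 2-fold higher in replicate 1, beside a background of 2.48% of all shared peaks, and 145 (2.22%) were higher in replicate 2, beside 3.04%. With the stricter lists these shares were 2.25% and 2.28%. Entry to both stricter lists was set mainly by replicate 2, whose list held 52.8% of middle-distance peaks against 86.0% for replicate 1. That filter favours peaks strong in replicate 2, so no conclusion on the larger share in replicate 1 is drawn from it.

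Windows with an AP-1 match stood toward replicate 1, and those with CTCF toward replicate 2. AP-1 windows had median signals of 1.04 and 0.820 in replicates 1 and 2 and a median centred log2 ratio of 0.27. Of them 49 (9.55%) were over 2-fold higher in replicate 1 and 4 (0.780%) in replicate 2. Among the 232 in the stricter lists of both libraries these counts were 20 (8.62%) and 1 (0.431%). The near class had a median log2 ratio of 0.21 for AP-1 windows, the far class 0.26 and coding gene bodies 0.13. CTCF windows had a median log2 ratio of -0.17, with 26 (3.87%) past 2-fold in each direction, beside 4.16% and 2.22% of all middle-distance peaks. Of the 505 in the stricter lists of both libraries, 6 (1.19%) were past it toward replicate 1 and 23 (4.55%) toward replicate 2. CAGCTG windows had a median of 0.18, with 57 (4.21%) toward replicate 1, near the 4.16% of all middle-distance peaks, and 17 (1.26%) toward replicate 2, beside 2.22%. Of the 642 in the stricter lists these counts were 19 (2.96%) and 9 (1.40%). Peaks of the stricter lists as a whole, centred on their own median, had 2.25% toward replicate 1 and 2.28% toward replicate 2. Entry to these lists was set mainly by replicate 2, so counts within them depend on that choice. These are differences between 2 libraries that also differ in depth, whose part was not tested.

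**Figure D4:**
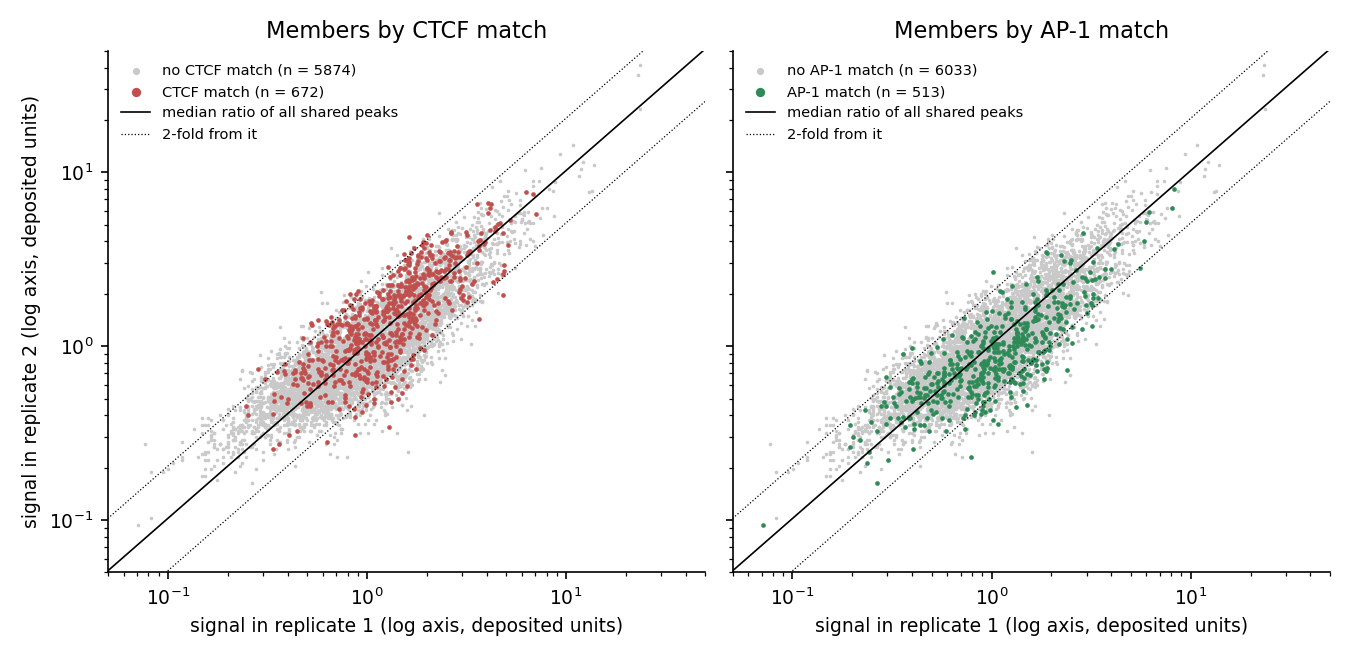
Deposited signal of each of the 6546 middle-distance peaks in replicate 1 (x) and replicate 2 (y), on log axes, with windows holding a CTCF match marked in one panel and those holding an AP-1 match in the other. The lines mark the median ratio of all shared peaks and 2-fold to either side. Past the 2-fold lines lie 49 AP-1 windows on the side of replicate 1 and 4 on that of replicate 2, and 26 CTCF windows on each.

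The peaks with the largest ratios were of moderate signal where they were higher. The largest in favour of replicate 1 lay at chr12:95631121-95631320, 61.0 kb upstream of Flrt2, with 1.60 and 0.248 in replicates 1 and 2 (271 and 29 tags), and 82.7% of its window was repeat-masked. The next 4 lay 52.3 to 78.9 kb from Atp8b1, Prmt6, Lsm6 and Mroh9, with 1.29 to 1.93 in replicate 1 and 0.316 to 0.427 in replicate 2. The 5 in favour of replicate 2 lay near Gm10340, Fth1, Vcpkmt, Rnf130 and Rgs8, with 0.331 to 0.597 in replicate 1 and 0.940 to 2.04 in replicate 2. Of these 10, the peak near Gm10340, whose window was 100% repeat-masked, stood in the stricter lists of both libraries.

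The 10 strongest middle-distance peaks were of 2 kinds, repeated sequence and CpG-rich sequence. The nearest protein-coding starts of the 3 strongest were those of Igf2bp3 at 21.6 kb, Gm8797 at 109.6 kb and Pak3 at 35.5 kb. The signals of these peaks in replicates 1 and 2 were 23.5 and 41.2, 23.0 and 36.4, and 23.6 and 23.1. Their windows had 2, 15 and 6 other matches in the genome of at least 100 bp and 90% identity, none of them mitochondrial. The part of such copies in the signal was not tested. The other 7 windows had no such match, and all 7 were CpG-rich, meaning a GC content of at least 50% and an observed over expected CpG ratio of at least 0.6.

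The 7 CpG-rich peaks had nearest protein-coding genes of varied function, with starts 14.5 to 63.6 kb away. These peaks lay near Foxk1 (10.8 and 14.4 in replicates 1 and 2), which encodes a forkhead factor, Zfp395 (13.9 and 11), Zfp239 (12.2 and 11.4), both zinc finger genes, and Ptma (11.9 and 10.5), the prothymosin gene. The others lay near Pum2 (9.37 and 12.7), which encodes an RNA-binding repressor, Wnt7b (13.5 and 7.81) and Cstad (11.7 and 9.54). In the RefSeq annotation of the same assembly, the peaks near Zfp239 and Wnt7b lay 8 and 65 bp from a transcript start. Those near Foxk1 and Cstad lay 1771 and 2688 bp from one. Of all middle-distance peaks, 352 (5.38%) lay within 1 kb of a RefSeq start, so the annotation decides whether these count as intergenic sites or as starts.

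CpG-rich windows were a minority of middle-distance peaks and differed from the others in signal. They numbered 609 (9.30%, 8.62 to 10.0), against 28.6% of the near class, 7.21% of the far class and 76.1% of promoter peaks. Their median signals were 1.37 and 1.50 in replicates 1 and 2, against 0.935 and 0.854 in the other windows. CTCF was found in 6.57% of them against 10.6%, and CAGCTG in 13.3% against 21.4%; base content defined this split, and its part in these shares was not tested. A RefSeq start lay within 1 kb of 13.6% of them and of 4.53% of the others.

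Each middle-distance peak was linked to its nearest protein-coding start. The peaks were nearest to 3396 genes, or 15.5% of protein-coding genes, of which 1942 had 1 peak, 744 had 2 and 139 had 6 or more. Genes nearest to at least 1 peak had an open promoter in both libraries in 71.0% of cases (69.4 to 72.5), against 56.2% (55.5 to 56.9) of the other genes. Where open, their promoters had lower median signals, 3.45 and 3.27 in replicates 1 and 2 against 3.91 and 3.51. The genes with a peak were also longer, with a median of 28.2 kb against 15.9 kb. A link by distance says nothing of which gene a site acts on.

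The lists of muscle fibre genes, which hold contractile, calcium handling and structural genes, had 2 middle-distance peaks for fast fibres, 6 for slow fibres and 8 for all fibres. Against the 15.5% of all protein-coding genes, 2 of 16 fast fibre genes, 4 of 14 slow fibre genes and 3 of 24 genes of all fibres had at least 1. The peak of Myh2, the type IIa myosin heavy chain, lay 17.6 kb upstream with 1.22 and 0.948 in replicates 1 and 2, and that of Myl1, a fast light chain, had 1.31 and 0.479. The strongest peak of the all fibres list lay 462 kb downstream of the start of Myom2, a gene of the M-band, with 1.69 and 3.14, and Des, the desmin gene, had 4 peaks at 12.8 to 15.9 kb upstream. Of the slow fibre peaks, 3 belonged to Atp2a2, the slow calcium pump, and the strongest slow fibre peak lay 11.9 kb upstream of Myl2, the slow regulatory light chain, with 2.92 and 3.66. The space where such a peak could lie had a median of 0 kb per fast fibre gene, 5.25 kb per slow fibre gene and 3 kb over all protein-coding genes, so the lists differ in the room they had. Per Mb of that space, fast fibre genes had 20.1 peaks, slow fibre genes 29.9 and genes of all fibres 8.71, against 9.38 over all protein-coding genes, with the fast fibre value resting on 2 peaks.

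Genes of muscle regulators and satellite cells had 25 and 23 peaks. Of 24 myogenic factors 8 had a peak, with a median of 49.8 kb of eligible space per gene. Per Mb of that space the list had 10.3 peaks, near the 9.38 over all protein-coding genes. Mef2a, a MEF2 family gene, had 5, and Nfix, a switch factor of fetal muscle, had 1 at 10.7 kb upstream with 4.59 and 5.78 in replicates 1 and 2. Of 15 satellite cell genes 10 had a peak, with a median of 40 kb of eligible space per gene and 34.8 peaks per Mb of it. Pax7, the stem cell marker, had 2, at 25.3 kb upstream with 2.01 and 2.77 and at 43.9 kb upstream with 0.515 and 0.675, both with a CTCF match, and Hey1, a Notch target, had 7. The 4 fibre and myogenic lists together accounted for 41 middle-distance peaks (0.626%, 0.462 to 0.849).

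Genes of hormone response and early response had some of the strongest peaks of the lists. Of 18 atrophy and hormone response genes 7 had a peak, and Foxo1, the forkhead factor of muscle wasting, had 14, the strongest 333 kb downstream of its start with 6.06 and 5.76 in replicates 1 and 2. Of 12 immediate early and stress genes 7 had one, 17 peaks in all, 1 of them near Hspb1, a small heat shock protein gene, with 2.98 and 1.72. Per Mb of eligible space these lists had 53.0 and 19.7 peaks, against 9.38 over all protein-coding genes. The hormone response value rests on 29 peaks, of which Foxo1 had 14 and Ddit4 had 6. Its genes had a median of 1 kb of eligible space. Fos had 6, with 8.74 and 5.58 at 18.5 kb upstream and 7.60 and 6.24 at 12.3 kb downstream, and Fosb had 1 with 6.47 and 5.17. The strongest peak of Foxo1 and that of Fos had CpG-rich windows, which had higher signals among middle-distance peaks at large. The part of CpG content in their strength was not tested. The median centred log2 ratio of the 17 was 0.32 and 13 lay above 0, where over all 6546 middle-distance peaks it was 0.04 and 3457 lay above 0. None of the 17 was past 2-fold, where 4.16% and 2.22% of all middle-distance peaks were.

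Lists of the other cell types of muscle differed in their share of genes with a peak and in their eligible space. Of 15 genes of fibro-adipogenic progenitors, the connective tissue cells of muscle, 9 had a peak, 25 in all, with a median of 122.5 kb of eligible space per gene and 14.9 peaks per Mb of it. Their strongest lay 25.8 kb upstream of Dpt, the dermatopontin gene, with 3.70 and 2.59 in replicates 1 and 2. The median centred log2 ratio of the 25 was 0.41 and 17 lay above 0, beside 0.04 and 3457 of 6546 over all middle-distance peaks. Past 2-fold were 4 toward replicate 1 and 0 toward replicate 2, beside 4.16% and 2.22%. These 4 lay near Dcn and Pdgfra only. Those of Dcn lay 89.2 to 260 kb upstream, with 1.28 and 0.530, 1.24 and 0.402, and 1.02 and 0.316 in replicates 1 and 2. That of Pdgfra lay 30.4 kb upstream with 1.65 and 0.726. Peaks near the same gene were counted separately. Endothelium had 7 of 15 genes, the strongest peak lying 72.8 kb upstream of Cdh5, the VE-cadherin gene, with 2.60 and 3.06. Its window was CpG-rich and a processed pseudogene start was nearer. Macrophages and leukocytes had 3 of 15, the strongest peak lying 22.8 kb upstream of Adgre1, the F4/80 gene, with 2.66 and 3.21. Of all protein-coding genes 15.5% had a peak. Endothelium genes had a median of 35 kb of eligible space, and macrophage and leukocyte genes 5.5 kb. Per Mb of it they had 15.4 and 17.5 peaks, resting on 11 and 6 peaks, against 9.38 over all protein-coding genes.

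The remaining lists had 0 to 5 genes with a peak. Tendon and junction had 5 of 11, led by a CpG-rich peak 27.7 kb downstream of the Egr1 start with 5.91 and 6.46 in replicates 1 and 2. Egr1 also stands in the early response list. Hindlimb and Hox genes had 4 of 14 (Meis1 leading, 120 kb away, 1.51 and 1.25). Smooth muscle and pericyte genes had 2 of 12 (Tbx18, 113 kb away, 1.26 and 0.538). Schwann cell genes had 2 of 11 (Pmp22, 84.3 kb away, 1.19 and 2.26) and adipocyte genes 1 of 10 (Lep, 111 kb away, 0.946 and 1.91). Of the lists for cells foreign to muscle, neuron had 4 of 13 (Stmn2, 263 kb away, 1.28 and 0.530). Hepatocyte had 1 of 12 (Apob, 161 kb away, 0.544 and 0.342) and keratinocyte 0 of 10. The background was 15.5% of all protein-coding genes. Per Mb of eligible space, tendon and junction genes had 9.70 peaks, hindlimb and Hox genes 14.3 and adipocyte genes 18.99. Smooth muscle and pericyte genes had 8.81, Schwann cell genes 6.38, neuron genes 4.94, hepatocyte genes 1.63 and keratinocyte genes 0. The value over all protein-coding genes was 9.38. The list values rest on 0 to 9 peaks each.

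**Figure D5:**
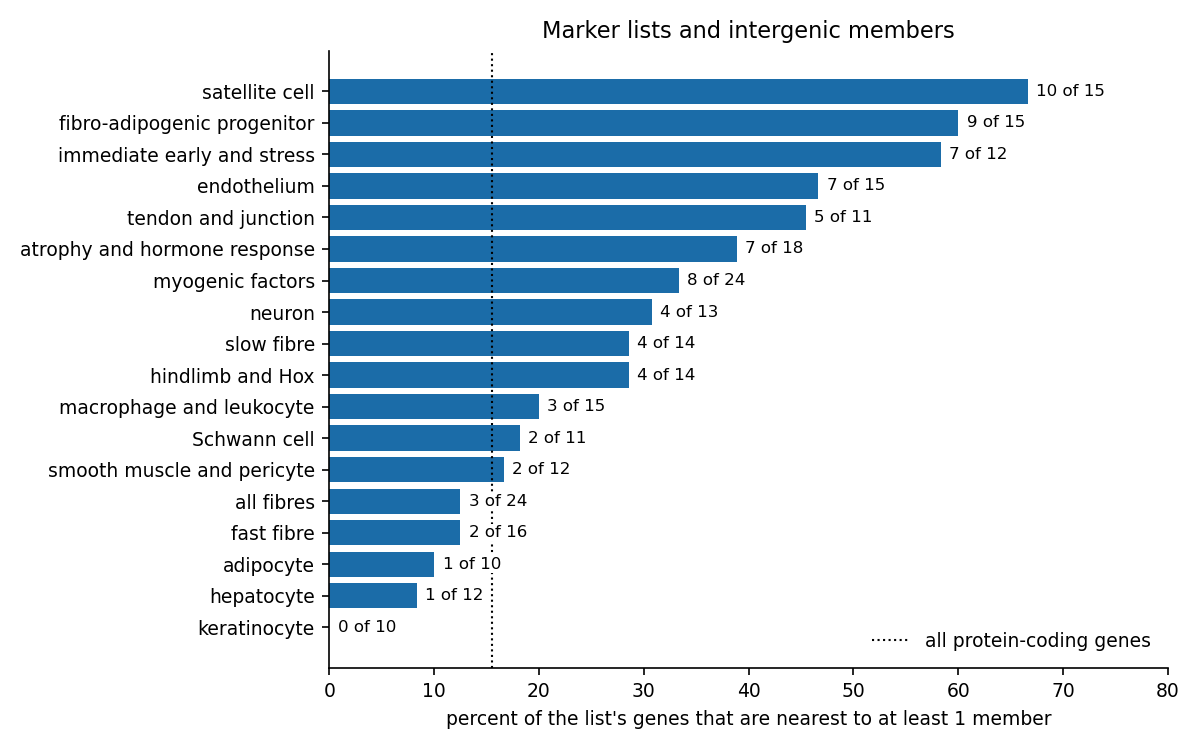
For each of 18 gene lists, the percent of its genes that are the nearest protein-coding start of at least 1 middle-distance peak (member), as bars from 0, with the 15.5% of all protein-coding genes as a dotted line. Satellite cell, fibro-adipogenic progenitor and immediate early and stress genes lie highest at 10 of 15, 9 of 15 and 7 of 12, and keratinocyte genes lie at 0 of 10.

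Some middle-distance peaks had neighbours of their own kind. Within 12500 bp of another lay 3067 of them (46.9%, 45.6 to 48.1), in 1181 runs of which 76 held 5 or more. The share in other classes is not given here, so the value has no background beside it. Replicate 1 peaks were not merged, and some neighbours overlap each other. Near Foxo1, chr3:52401161-52401580 and chr3:52401181-52401980 overlap, each with a replicate 2 signal of 1.32. Runs of 10 peaks lay near Wnt7b, with median signals of 1.83 and 1.94 in replicates 1 and 2, near the keratin genes Krt78 and Krt8, with 1.86 and 1.50, and near Gm11733 and Tnrc6c, with 1.42 and 1.18. The run of 22 lay 87.4 to 105 kb from the start of Vmn1r2, a vomeronasal receptor gene. That run spanned 17.7 kb with medians of 0.163 and 0.273. A mean of 49.2% of its windows was repeat-masked and none of its peaks had a log2 ratio above 0. A pair of runs of 9 near Ptgis, the prostacyclin synthase gene, tied for the fifth place, with medians of 0.201 and 0.350 and of 0.266 and 0.419.

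By gene, Vmn1r2 had the most middle-distance peaks with 22, followed by Ets1, an ETS family factor, and Ptgis with 15 each, Foxo1 with 14 and Zfp516 with 13. Cog6, Gm11733 and Wnt7b had 12 each, and 5 more genes had 11. The 15 of Ets1 spread over 411 kb with medians of 0.799 and 0.846 in replicates 1 and 2, whereas the 12 of Wnt7b lay within 35.9 kb.

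The X chromosome, single in these males, had fewer and weaker middle-distance peaks than the autosomes. It held 160, or 0.936 per Mb, against 2.59 per Mb of autosome, where single autosomes ranged from 1.91 on chromosome 16 to 4.09 on chromosome 11. Per Mb of sequence in the window, X held 2.84 and the autosomes 10.7. Over all shared peaks X held 1269, of which middle-distance peaks made up 12.6%, close to the 13.2% over all chromosomes, so the low number was not limited to them. The median signals were 0.633 and 0.547 on X in replicates 1 and 2 and 0.976 and 0.897 on the autosomes. The Y chromosome held 16, of which 8 lay in 1 run near Gm21860.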

How the data were processed

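DNase-seq peak lists, footprints and per-position false discovery rates of 2 libraries were used, on mm10 per the labels. Signals are those the authors deposited for each peak. All were whole multiples of a fixed step within a library (to within 0.1 of a whole number), which reads as tags scaled to library size, an inference from the values. One tag was worth 0.00591 in replicate 1 and 0.00854 in replicate 2. The longer of the 2 peak lists of each library was taken as the looser and the shorter as the stricter, by their number of peaks. By the deposited per-position q-value, all 6546 middle-distance peaks had a value below 0.05 in each library. A value below 0.001 was found for 88.2% in replicate 1 and 57.6% in replicate 2. The fraction column of the deposited footprint files holds the constant 0.01, so footprints were not ranked. For the aligner, peak caller and footprint caller: not given in the sources used here.

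Replicate 1 peaks gave the coordinates, and each took the highest signal of the replicate 2 peaks it overlapped, of which 182 peaks (2.78%) had more than 1. Gene starts and bodies came from GENCODE release M21, sequence and repeat masking from GRCm38.p6. Motifs were exact matches on both strands of 150 bp around the midpoint. The space in each window was counted at points 500 bp apart. Copies of the 10 strongest windows were sought with blastn 2.17.0. Python 3.11.15, numpy 2.4.6, pandas 2.3.3, scipy 1.17.1, pysam 0.24.0 and matplotlib 3.10.9 were used, and interval and motif steps were tested on simulated data.

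Members, the 18 gene lists and the 37 motifs were chosen with earlier results of these data known, and the limit for CpG-rich windows, the RefSeq comparison, the count of space per window and the comparison within signal classes were added after values were seen. The rule for names takes the 10 strongest peaks, the 5 largest ratios in each direction among peaks above the median in at least 1 library, the strongest peak of each list (that of the myogenic factors is not reported here), the 5 longest runs, the 10 genes with most peaks, and the 6 highest and 4 lowest motif ratios. AP-1 and the E-box CACCTG, and list genes beyond the strongest, were described outside it after their values were seen.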

Additional observations from a re-analysis of the deposited data

How the results depend on the processing

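Of the recomputed values, 92 stayed within the replicate or counting error (or 1.5 times for counts) and 42 moved. Whether a value reversed was not scored. Stricter peak lists gave 3335 peaks, a median signal of 1.40, footprints of both libraries in 94.5%, CTCF in 15.2%, CAGCTG in 19.4%, 4.53% beyond 2-fold against 6.37%, and 35.7% with a neighbour. Their share in the stricter lists is fixed by construction and gives no value. Overlap of at least 50% of both peaks gave 1.05, 87.9%, CTCF in 12.8%, 5.50% beyond 2-fold, 37.4% with a neighbour and 60.8% in the stricter lists. Replicate 2 coordinates gave footprints in 78.2%. Leaving out the bodies of all genes gave an X to autosome ratio of peaks per Mb of 0.397 against 0.362. Whole peaks held CAGCTG in 26.6% and 100 bp windows in 15.1%.

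Leaving out either library removes the condition on sharing. It gave 8472 to 15803 peaks, 45.4 to 56.0% in the stricter list, footprints in 72.9 to 80.2%, a median signal of 0.544 to 0.726, CTCF in 6.16 to 7.78%, CAGCTG in 17.8 to 19.8%, GC of 52.7 to 54.7%, repeats of 10.1 to 12.1%, an X to autosome ratio of 0.438 to 0.476 and 51.5 to 63.3% with a neighbour. It gives no ratio between libraries. The share near muscle list genes moved under none of its alternatives (0.570 to 0.753%). No paired analysis was possible because there is 1 group. Replicate 2 has fewer tags, and the part of depth was not tested. Repeats and the second parental allele of the hybrid were not resolved.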
